A study of Mus musculus with 11 samples.

Results

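The genes described here are 48 genes of ceramide and sphingolipid metabolism, out of 36666 gene rows in the count table of the series. They were listed around Acer2, whose mRNA stood higher in Polg mutator cerebrum, so the list was chosen by the Acer2 levels of these same mice, which are given as a description with no test. Of the 48 genes, 42 were listed by symbol and 6 are the ceramide synthases, which the table carries under their older symbols Lass1 to Lass6 (now Cers1 to Cers6). All 48 were found in the table, and all 48 passed the filter on low counts.

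Poly(A)+ RNA of the cerebrum was sequenced from 11 male C57/Bl6 mice aged 1 year. The 7 Polg mutator mice were homozygous for D257A, a germline knock-in allele that impairs the proofreading of the mitochondrial DNA polymerase in every tissue, and are numbered 207, 211, 217, 236, 240, 248 and 249. The 4 control mice came from the same breeding of heterozygotes: 205, 239 and 246 were WT/WT, and 237 was WT/D257A and so carried 1 copy of the mutant allele. Each library is 1 mouse. Counts per exon bin, the smallest pieces into which overlapping exons divide a gene, were used for 10 of the mice, without mouse 237. In bulk tissue, fewer cells of a type and less RNA per cell cannot be told apart.

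Sphingolipids are built on a long-chain base that serine palmitoyltransferase makes in the endoplasmic reticulum from serine and a fatty acyl-CoA. Ceramide synthases add a fatty acid to that base, and the ceramide is then turned into sphingomyelin, into glycolipids such as the gangliosides of neurons and the galactosylceramide and sulfatide of myelin, or, by ceramidases, back into the base sphingosine. Sphingosine kinases turn sphingosine into sphingosine 1-phosphate, a signal read by receptors at the cell surface, and lysosomal enzymes take the larger lipids apart again.

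Libraries held between 28249345 and 121182250 gene counts in the controls and between 37821243 and 91219204 in the mutators. The 48 genes took between 0.376% and 0.387% of the counts of a control and between 0.374% and 0.389% of those of a mutator. In the exon files, between 20.62% and 20.77% of the counts lay in no bin in the 3 WT/WT mice. In the 7 mutators the share was between 20.78% and 23.40%, the highest in mouse 248, so the groups did not overlap. The labelled tissue carried its markers: the 7 neuron markers tested summed to between 6590 and 7153 CPM (a gene's counts scaled to library size) over the 11 mice, the 8 astrocyte markers to between 3913 and 4471 CPM and the 10 oligodendrocyte markers to between 4974 and 6953 CPM. The 8 microglia markers summed to between 277.4 and 344.3 CPM in controls and between 260.5 and 318.9 CPM in mutators, with 8 of 8 fitted log2 fold changes negative and 0 of 8 called, that is with an adjusted p under 0.05, by edgeR or by DESeq2 (4 had an unadjusted p under 0.05 in edgeR). No marker of these 4 lists was at 0.

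Acer2 mRNA was higher in each of the 7 mutators than in any control. The gene encodes alkaline ceramidase 2, a Golgi enzyme that splits ceramide into sphingosine and a fatty acid. In the controls its level was 9.16 CPM in mouse 205, 9.66 CPM in mouse 239 and 8.10 CPM in mouse 246, all WT/WT, and 7.90 CPM in the WT/D257A mouse 237. In the mutators the lowest level was 18.4 CPM, the median 23.0 CPM and the highest 29.6 CPM. The heterozygote therefore lay with the WT/WT mice, at the low end, and the groups were separated by a gap about as wide as the controls' own level. The means were 8.71 ± 0.84 CPM (SD, n = 4) and 23.6 ± 4.8 CPM (SD, n = 7), and the fitted log2 fold change was 1.43 with a standard error of 0.15. Leaving out any 1 mouse kept this change between 1.37 and 1.49.

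**Figure D1:**
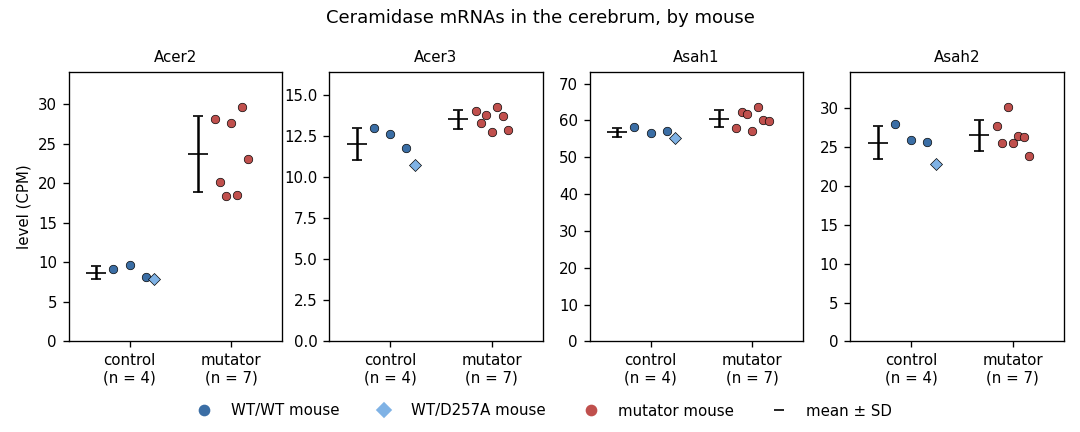
Level in CPM of the 4 ceramidase mRNAs in each mouse, with circles for WT/WT controls, a diamond for the WT/D257A control, red circles for mutators, and bars for the mean ± SD of each group. Acer2 runs from 7.90 to 9.66 CPM in controls and from 18.4 to 29.6 CPM in mutators, while the groups overlap for Acer3, Asah1 and Asah2.

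Acer2 lies on chromosome 4 of mm9 (chr4:86520300-86580726, plus strand), and its exon file holds 11 bins. Bins 1 to 7, which cover 4216 bases, are annotated to Acer2 alone (ENSMUSG00000038007), and bin 7, of 3482 bases, is the last exon of the coding transcripts, with the end of the coding sequence and the 3′ UTR. Bins 8 to 10, which cover 2941 bases further downstream, are shared with another gene ID of the same name (ENSMUSG00000091609), in whose coding transcript bin 8 and the first bases of bin 9 are 5′ UTR. The files give no coordinates for bins, so their places come from a flattened later annotation, in which the group also has 11 bins. Edges of bins 6, 7, 8 and 9 are printed here from mm9, 30 bases each on the plus strand. The counts of bins 6 and 7 had ratios of mutators over WT/WT mice of 2.46 and 2.65. Those of bins 8 and 9 had ratios of 1.26 and 1.12. Capitals mark the 10 exon bases of each, and lower case marks the intron.
End of bin 6 (chr4:86557648-86557677): ACTGTGTGTGgtaagctcctgctctggggt
Start of bin 7 (chr4:86563278-86563307): acatctcccttctcttgcagGCATATTCTC
End of bin 8 (chr4:86576737-86576766): GAGATTACTGgtgagtgaaacacaacatct
Start of bin 9 (chr4:86577916-86577945): atctcattttctttcaccagGAGTGCTGAC
In the annotation, bin 6 is joined to bin 7 in some transcripts and to bin 9 in another, and bin 8 is joined to bin 9 in the transcripts that hold bin 8. The introns printed begin with gt and end with ag.

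The higher Acer2 level was found in the bins of Acer2 alone and hardly in the shared ones. Bins 2 to 7 together stood at 6.34 to 7.16 CPM of bin counts in the 3 WT/WT mice and at 13.95 to 21.8 CPM in the 7 mutators, so the groups did not overlap. Their means were 6.70 ± 0.42 CPM (SD, n = 3) and 17.3 ± 3.4 CPM (SD, n = 7), a ratio of 2.57. Bins 8 to 10 together stood at 1.48 to 1.88 CPM in the WT/WT mice and at 1.76 to 2.25 CPM in the mutators, where the ranges overlapped and the ratio of the means, 1.66 ± 0.20 and 1.94 ± 0.16 CPM, was 1.17. Each bin from 2 to 7 had a ratio between 1.98 in bin 2 and 2.69 in bin 4, and bins 8, 9 and 10 had ratios of 1.26, 1.12 and 1.24. Together, bins 8 to 10 rested on 36 to 173 counts in a WT/WT mouse and 61 to 188 in a mutator. Bin 8 rested on 3 to 26 counts in a mouse. The shared bins made up 19.8% ± 0.96 (SD, n = 3) of the bin counts of the group in WT/WT mice and 10.3% ± 1.2 (SD, n = 7) in mutators. In the same mice, bin 9 made up 12.7% and 6.36% of these counts while its level was 1.07 ± 0.13 CPM and 1.19 ± 0.099 CPM, so its smaller share went with more counts in the other bins and not with fewer counts of its own.

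**Figure D2:**
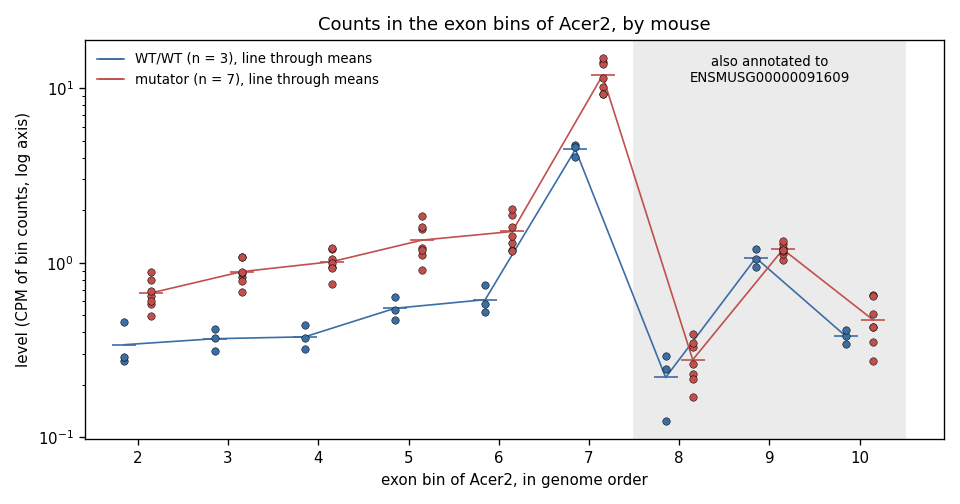
Level of each Acer2 exon bin in CPM of bin counts, on a log axis, for bins 2 to 10 in genome order, with 1 point for each of the 3 WT/WT mice (blue) and 7 mutators (red) and lines through the group means. The mutator points lie above the WT/WT points in bins 2 to 7, and the points overlap in the shaded bins 8 to 10, which are also annotated to another gene ID.

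The gene table's count of Acer2 followed bins 1 to 7. It was 1.53 ± 0.082 times the counts of these bins in WT/WT mice (SD, n = 3) and 1.55 ± 0.037 times in mutators (SD, n = 7). Against all 11 bins it was 1.17 to 1.28 times in WT/WT mice and 1.32 to 1.45 times in mutators, 2 ranges that did not overlap. When gene totals were summed from all bins, for 3 WT/WT mice against 7 mutators, the log2 fold change of Acer2 was 1.19, the lowest of all alternatives. Bin 5, which 1 annotated transcript skips, stood at 55.6% ± 7.2 of the counts of bins 4 and 6 in WT/WT mice and at 52.9% ± 3.5 in mutators, with overlapping ranges. The 5 tested genes on either side of Acer2, among them Rps6, Dennd4c, Plin2 and Slc24a2, had log2 fold changes between -0.0016 and 0.21, and edgeR and DESeq2 called 0 of the 10 (1 had an unadjusted p under 0.05 in edgeR).

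Among the other 3 ceramidases, edgeR and DESeq2 called 0, with 1 at an unadjusted p under 0.05 in edgeR, where 1.24% of all genes tested were called. Acer3, an alkaline ceramidase of the endoplasmic reticulum and Golgi, stood at 13.0, 12.6 and 11.7 CPM in WT/WT mice 205, 239 and 246 and at 10.7 CPM in mouse 237. In the mutators its lowest level was 12.7 CPM, its median 13.7 CPM and its highest 14.2 CPM, and 5 of 7 mutators were above all controls. Its log2 fold change was 0.17 with a standard error of 0.068 (adjusted p = 0.233 in edgeR, unadjusted p = 0.0239). Asah1, the acid ceramidase of the lysosome, ran from 55.3 to 58.3 CPM in controls and from 57.2 to 63.5 CPM in mutators, a log2 fold change of 0.089 (adjusted p = 0.351 in edgeR). Asah2, the neutral ceramidase of the cell surface, had one of 0.051 (adjusted p = 0.753 in edgeR). Summed, Acer3, Asah1 and Asah2 stood at 94.4 ± 4.3 CPM (SD, n = 4) in controls and 100.5 ± 3.7 CPM (SD, n = 7) in mutators, with overlapping ranges. Acer2 made up 8.44% ± 0.58 of the CPM of the 4 ceramidases in controls and 19.0% ± 3.5 in mutators.

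Per kilobase of exon, Acer2 was the lowest of these 4 ceramidases in all 4 controls. Acer1, an alkaline ceramidase outside the 48 genes, had between 1 and 15 counts in a library and was not tested. The control means were 16.7 CPM per kb for Asah1, 5.47 for Asah2, 2.78 for Acer3 and 1.22 for Acer2, and each was above the next in 4 of 4 controls. In the mutators Acer2 stood at 3.30 CPM per kb and Acer3 at 3.13, and Acer3 was above Acer2 in 3 of the 7. This order rests on the exon length used. Over the 4216 bases of bins 1 to 7, Acer2 stood at 2.07 CPM per kb in controls and 5.61 in mutators, and was then above Acer3 in all 7 mutators and still below it in all 4 controls.

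For the list as a whole, the question was whether the genes that make, use and sense ceramide and sphingosine differed along with Acer2. They did so in 1 case at the threshold used. Of the 47 members other than Acer2, the quasi-likelihood test of edgeR, adjusted after Benjamini and Hochberg over 17983 genes, called 1, Sgms2, which was higher in mutators. Of all genes tested, 223 or 1.24% were called in either direction and 0.439% were called higher. With Acer2 counted, 2 of 48 were called, but the contrast that chose Acer2 is the same one, so nothing is read from that share. At an unadjusted p under 0.05 there were 11 of the 47, that is 23.4%, against 15.8% of all genes tested. Of the 11, 6 were higher and 5 lower in mutators. The 15.8% is also the share to read beside the counts by role group. Of the 47, DESeq2 called Sgms2 and St3gal5, and so none of the genes in the other role groups. DESeq2 called more genes than edgeR over the whole table, 615 of the 17377 to which it gave an adjusted p.

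The fold changes were small on the whole, as over all genes tested. The median absolute log2 fold change was 0.082 for the 48 members and 0.089 for all genes tested. Over the 48 members the median log2 fold change was 0.033, with 28 above 0 and 20 below, and over all genes tested the median was 0.0014. For 9 members, with log2 fold changes between -0.029 and 0.058 and 0 calls, the sign changed in at least 1 of 17 alternatives (Degs1, Degs2, Sgms1, Smpd2, Asah2, Ugcg, Gba2, Psap and Glb1). Without Acer2 the members lay between -0.23 for S1pr5 and 0.43 for Sgms2. The 95% interval of the fold change lay within 1.2-fold either way for 33 of the 48, or 68.8%, against 49.0% of all genes tested, and within 1.5-fold for 45. The median standard error was also smaller for the members, at 0.056 against 0.078 for all genes tested, which narrows their intervals. The 3 members whose intervals reached past 1.5-fold were Acer2, Sgms2 and Lass3, the last of which had as few as 6 counts in a library. Only Acer2 and Sgms2 had 4 controls and 7 mutators that did not overlap in CPM. Of all genes tested, 2.62% did not overlap.

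**Figure D3:**
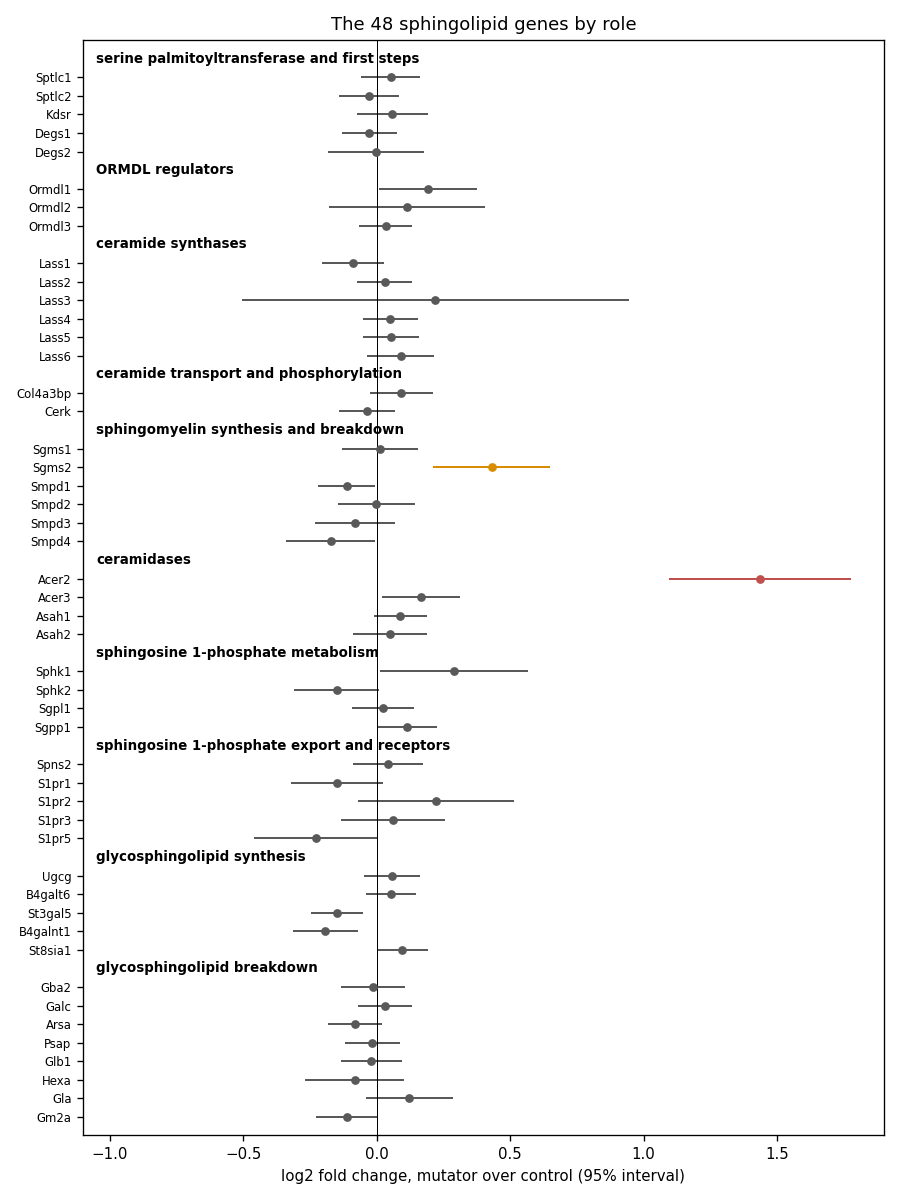
Fitted log2 fold change of mutators over controls for the 48 genes, in role groups, with bars for the 95% interval. Acer2 (red, the gene the list was built around, not tested) is at 1.43, Sgms2 (orange, adjusted p = 0.0441 in edgeR) is at 0.43, and the other 46 (grey) lie between -0.23 and 0.29.

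Sgms2 was the member that rose beside Acer2. It encodes sphingomyelin synthase 2, an enzyme of the plasma membrane that moves phosphocholine onto ceramide, and it lies on chromosome 3 of mm9 (chr3:131021903-131047858, minus strand). Its level was 5.62, 6.10 and 4.29 CPM in WT/WT mice 205, 239 and 246 and 4.90 CPM in mouse 237. In mutators the lowest level was 6.31 CPM, the median 7.33 CPM and the highest 7.94 CPM. All 7 mutators were above all 4 controls, though the lowest mutator and the highest control differed by less than the spread within either group. The log2 fold change was 0.43 with a standard error of 0.10 (adjusted p = 0.0441 in edgeR). The call was lost in 7 of 17 alternatives, in each of them with a positive fold change. Without the WT/D257A mouse the log2 fold change was 0.40 (adjusted p = 0.201 in edgeR), without control 246 it was 0.36 (0.156), and without mutator 211, 236, 240 or 248 the adjusted p lay between 0.0745 and 0.0912. Gene totals from exon bins, which are also without mouse 237, gave 0.33 (adjusted p = 0.283 in edgeR).

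The other 5 sphingomyelin genes did not pass the test. Sgms1, the synthase of the Golgi, stood at 39.3 ± 1.8 CPM in controls and 39.7 ± 4.1 CPM in mutators, a log2 fold change of 0.013 (adjusted p = 0.951 in edgeR). Sgms2 made up 11.7% ± 1.4 of the CPM of both synthases in controls and 15.3% ± 2.0 in mutators, and these ranges overlapped. Smpd1, the acid sphingomyelinase of the lysosome, ran from 81.2 to 91.0 CPM in controls and from 74.4 to 86.6 CPM in mutators, with a log2 fold change of -0.11 (adjusted p = 0.263 in edgeR). Smpd4, a neutral sphingomyelinase, ran from 71.5 to 86.8 CPM in controls, the highest being mouse 237, and from 54.0 to 75.7 CPM in mutators, with a log2 fold change of -0.17 (adjusted p = 0.290 in edgeR). Smpd2 and Smpd3, the other neutral enzymes, had log2 fold changes of -0.0016 and -0.082. In this group of 6, 3 had an unadjusted p under 0.05 (Sgms2, Smpd1 and Smpd4).

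In the synthesis of ceramide, no gene was called. Sptlc1 and Sptlc2, the catalytic pair of serine palmitoyltransferase, Kdsr, the reductase of the next step, and Degs1 and Degs2, the desaturases of the last, had log2 fold changes between -0.029 and 0.059, and edgeR called 0 of these 5, with 0 at an unadjusted p under 0.05. For each of the 5, the 95% interval lay within 1.2-fold. Sptlc1, with the lowest p of the group, stood at 26.7 ± 0.66 CPM in controls and 27.7 ± 1.3 CPM in mutators (log2 fold change 0.053, adjusted p = 0.664 in edgeR). The ORMDL proteins, which hold serine palmitoyltransferase back, had 3 positive fold changes and 0 calls, with 1 unadjusted p under 0.05. It was that of Ormdl1, whose level was 8.15 to 9.05 CPM in controls and 8.33 to 11.4 CPM in mutators, with 5 of 7 mutators above all controls (log2 fold change 0.19, adjusted p = 0.283 in edgeR).

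The ceramide synthases, which differ in the length of the fatty acid they add, gave 0 calls in 6 genes and 0 unadjusted p-values under 0.05. Lass1, the synthase typical of neurons, had the lowest p, with 42.9 to 47.1 CPM in controls and 38.9 to 45.8 CPM in mutators (log2 fold change -0.088, adjusted p = 0.454 in edgeR). The reads of Lass1 can share an overlapping gene (ENSMUSG00000055694) with which its exon bins are merged. The other 5 had fold changes between 0.030 for Lass2, the synthase of very long chains, and 0.22 for Lass3, whose interval ran from -0.50 to 0.94. Per kilobase of exon the control means ran from 17.2 CPM for Lass2 through 16.1 for Lass5, 15.1 for Lass4, 14.1 for Lass1 and 8.55 for Lass6 to 0.087 for Lass3. Lass4 was above Lass1 in 3 of 4 controls and Lass2 above Lass5 in 5 of 7 mutators, so the first 4 lay close together, while Lass6 and Lass3 were below their neighbour in each mouse.

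Of the 2 genes that carry ceramide onward, neither was called and neither had an unadjusted p under 0.05. Col4a3bp, the ceramide transfer protein that takes ceramide from the endoplasmic reticulum to the Golgi, stood at 104.7 ± 8.5 CPM in controls and 111.7 ± 6.4 CPM in mutators (log2 fold change 0.092, adjusted p = 0.434 in edgeR). Cerk, the ceramide kinase, had a log2 fold change of -0.038.

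The genes of sphingosine 1-phosphate gave 0 calls in 9. In its making and breakdown, 2 of 4 genes had an unadjusted p under 0.05. Sgpp1, a phosphatase that returns it to sphingosine, stood at 39.9 ± 2.2 CPM in controls (SD, n = 4) and 43.3 ± 1.8 CPM in mutators (SD, n = 7), with overlapping ranges (log2 fold change 0.11, adjusted p = 0.275 in edgeR). Sphk1, one of the kinases that make it, was low, at 2.98, 2.90 and 3.49 CPM in WT/WT mice 205, 239 and 246 and 2.99 CPM in mouse 237. In mutators it ran from 2.77 through a median of 3.82 to 4.71 CPM, with 5 of 7 above all controls and 1 below all of them (log2 fold change 0.29, adjusted p = 0.283 in edgeR). The other kinase, Sphk2, had a log2 fold change of -0.15 (adjusted p = 0.340 in edgeR), and Sgpl1, the lyase that ends the pathway, one of 0.023.

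Spns2, which exports sphingosine 1-phosphate, and the 4 receptors on the list, S1pr1, S1pr2, S1pr3 and S1pr5, had 0 calls and 0 unadjusted p-values under 0.05. Of these, S1pr5, the receptor typical of oligodendrocytes, came nearest, with 20.9, 21.4 and 22.2 CPM in WT/WT mice 205, 239 and 246 and 23.6 CPM in mouse 237. In mutators the lowest level was 13.9 CPM in mouse 240, the median 19.1 CPM and the highest 24.7 CPM in mouse 217. Thus 6 of 7 mutators were below all controls and 1 was above all of them (log2 fold change -0.23, standard error 0.11, adjusted p = 0.322 in edgeR). S1pr4, the receptor outside the 48 genes, rested on 5 to 30 counts in a library and stood at 0.207 to 0.436 CPM in controls and 0.0665 to 0.343 CPM in mutators, with 5 of 7 mutators below all controls (log2 fold change -0.76, standard error 0.39, adjusted p = 0.348 in edgeR). Per kilobase of exon, S1pr1 led the 4 listed receptors, at 44.7 CPM in controls and 40.3 in mutators, followed by S1pr5 at 8.81 and 7.52, S1pr3 at 1.68 and 1.76 and S1pr2 at 0.723 and 0.838. That order held in each of the 11 mice.

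In glycolipid synthesis, 0 of 5 genes were called by edgeR, with 3 at an unadjusted p under 0.05, of which B4galnt1 and St3gal5 had negative fold changes and St8sia1 a positive one. B4galnt1, which adds the sugar that turns the simple gangliosides into complex ones, stood at 64.3, 71.0 and 68.7 CPM in WT/WT mice 205, 239 and 246 and at 79.1 CPM in mouse 237. In mutators it ran from 57.3 through a median of 61.9 to 67.0 CPM, with 6 of 7 below all controls (log2 fold change -0.19, standard error 0.056, adjusted p = 0.0925 in edgeR). It was called in 1 of 17 alternatives, without control 205 (-0.24, adjusted p = 0.0401 in edgeR). St3gal5, the GM3 synthase at the entry to the gangliosides, ran from 102.6 to 115.6 CPM in controls and from 93.6 to 102.8 CPM in mutators, again with 6 of 7 below all controls (log2 fold change -0.15, adjusted p = 0.101 in edgeR). DESeq2 gave it an adjusted p of 0.0443 and the same fold change. St8sia1, the GD3 synthase, was on the other side (log2 fold change 0.096, adjusted p = 0.297 in edgeR), with 5 of 7 mutators above all controls. Ugcg and B4galt6, which make glucosylceramide and lactosylceramide, had log2 fold changes of 0.058 and 0.053.

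The 8 genes of glycolipid breakdown gave 0 calls, with 1 unadjusted p under 0.05, and their log2 fold changes lay between -0.11 and 0.12. The lowest was that of Gm2a, the activator that presents ganglioside GM2 to its enzyme, at 47.5 to 53.3 CPM in controls and 42.6 to 50.2 CPM in mutators (adjusted p = 0.309 in edgeR). The highest was that of Gla, the alpha-galactosidase of the lysosome (adjusted p = 0.461 in edgeR). Between them were Gba2, a glucosylceramidase outside the lysosome, and the lysosomal Galc, Arsa, Glb1 and Hexa. Psap, whose product is cut into the saposins that help these enzymes, had the highest level per kilobase of the 48 genes, at 594 CPM per kb in controls and 588 in mutators. Exon bins of Glb1 are merged from 2 gene IDs.

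**Figure D4:**
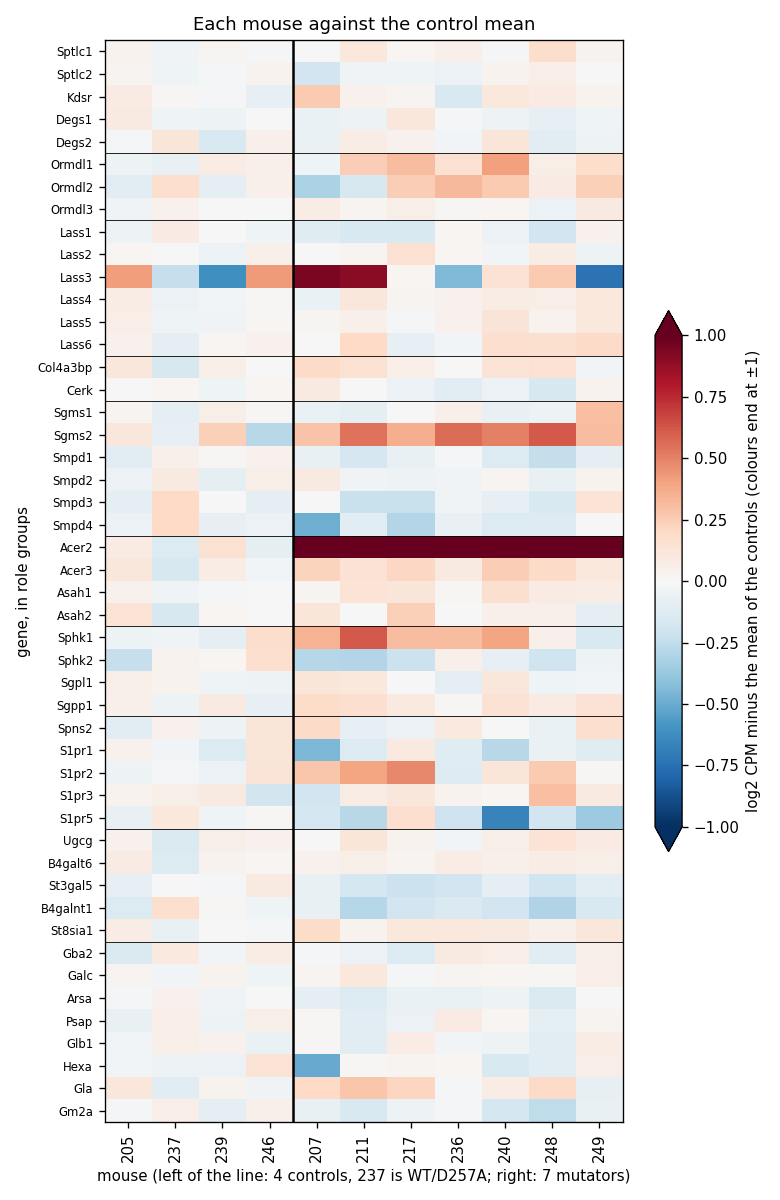
Log2 CPM of each of the 48 genes in each mouse minus the mean of the 4 controls, with red for higher and blue for lower, genes in role groups from serine palmitoyltransferase at the top to glycolipid breakdown at the bottom. Acer2 is red in all 7 mutators and Sgms2 in all 7 more weakly, B4galnt1 and St3gal5 are pale blue in mutators, and Lass3, with few counts, varies in both groups.

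Exon usage was compared for 588 bins of 45 of the other members. Lass3 and S1pr2 had no bin that could be tested. edgeR's diffSpliceDGE called 0 of these bins, with 10 at an unadjusted p under 0.05, and limma's diffSplice called 0, with 19 at an unadjusted p under 0.05 and a lowest adjusted p of 0.753. Of all 206930 bins tested, diffSpliceDGE called 49, or 0.0237%, and diffSplice called 25. At an unadjusted p under 0.05 there were 3923 of all bins with diffSpliceDGE and 5496 with diffSplice. The count of called bins of these members stayed at 0 with each of the 10 mice left out in turn.

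Outside the 48, 36 further genes of the pathway were looked up, of which 34 were tested and Acer1 and Sptlc3 had too few counts. Gltp and Fa2h fell. Of the 34, edgeR called these 2 lower and 0 higher (1 higher and 7 lower at an unadjusted p under 0.05), where 0.801% of all genes tested were called lower. At an unadjusted p under 0.05, 1291 of all 17983 genes tested were higher and 1543 lower. The median log2 fold change of the 34 was -0.054. Gltp, which carries glycolipids between membranes (chr5:115119412-115140993), stood at 38.5, 35.9 and 41.7 CPM in WT/WT mice 205, 239 and 246 and at 41.7 CPM in mouse 237. In mutators it ran from 27.5 through a median of 28.8 to 37.7 CPM in mouse 217, and 6 of 7 were below all controls. The log2 fold change was -0.36 with a standard error of 0.075 (adjusted p = 0.0236 in edgeR), and the call was lost in 4 of 17 alternatives.

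Fa2h, which hydroxylates the fatty acids of myelin galactolipids (chr8:113869035-113917724), ran from 40.8 to 46.1 CPM in controls and from 29.4 through a median of 33.8 to 43.1 CPM in mutators. Again 6 of 7 mutators were below all controls, and mouse 217 was the seventh. The log2 fold change was -0.33 with a standard error of 0.080 (adjusted p = 0.0498 in edgeR), and it was called in 4 of 17 alternatives. Gal3st1, the sulfatide synthase, had a log2 fold change of -0.31 (adjusted p = 0.0951 in edgeR) and Neu4, a sialidase that removes sialic acid from gangliosides, one of -0.34 (0.0996), each with 6 of 7 mutators below all controls. Ugt8a, which makes galactosylceramide, had one of -0.11 (adjusted p = 0.784 in edgeR). DESeq2 called Fa2h, Gltp, Gal3st1 and Neu4, where it called 615 of all 17377 genes with an adjusted p. Mfsd2a, a lipid transporter of the brain endothelium, ran from 15.2 to 17.7 CPM in controls and from 17.2 to 30.1 CPM in mutators (log2 fold change 0.45, adjusted p = 0.171 in edgeR).

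The oligodendrocyte markers were read beside these genes. Of 10 markers, edgeR called 1, Opalin, at 22.5 to 23.7 CPM in controls and 9.12 to 18.9 CPM in mutators (log2 fold change -0.81, adjusted p = 0.0385 in edgeR), and 5 of 10 had an unadjusted p under 0.05, all lower. The fitted fold changes were negative for 6 markers and positive for 4, among them Mobp at 0.15 and Mbp at 0.13. DESeq2 called Mag as well. The highest mutator for Opalin was mouse 217, as it was for Gltp, Fa2h, Gal3st1 and S1pr5. The summed level of the 10 markers ran from 5099 to 5824 CPM in controls and from 4974 to 6953 CPM in mutators, and none was at 0. Their part in the lower levels of Gltp, Fa2h and S1pr5 was not tested.

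**Figure D5:**
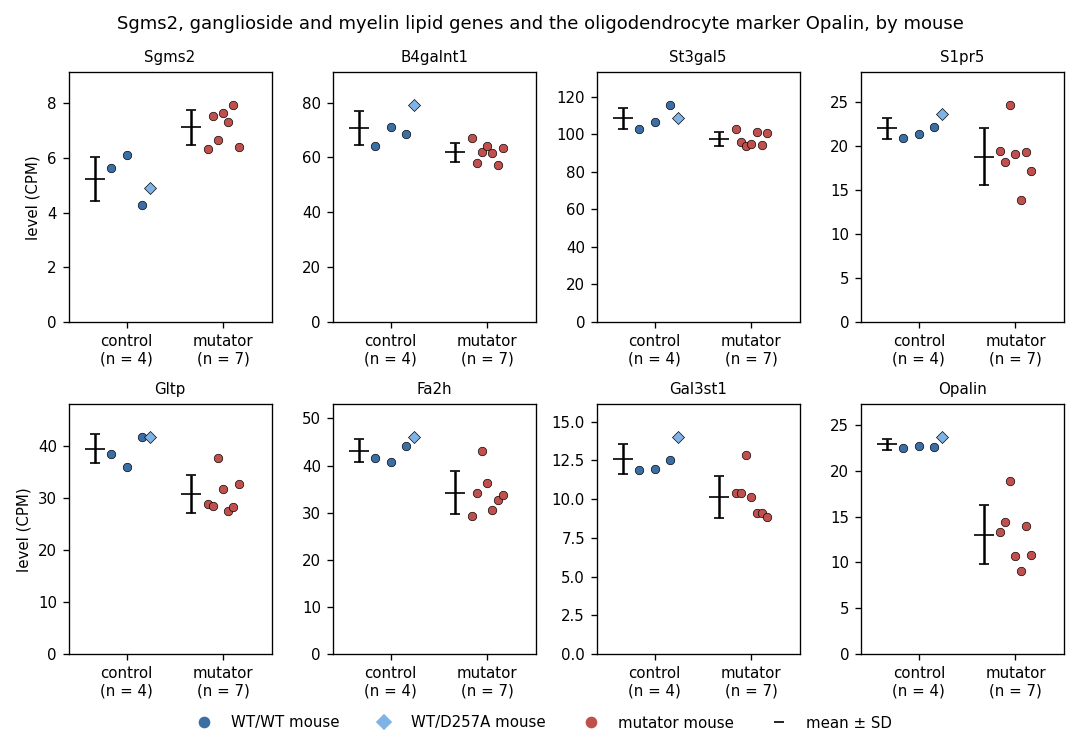
Level in CPM of Sgms2, B4galnt1, St3gal5, S1pr5, Gltp, Fa2h, Gal3st1 and the oligodendrocyte marker Opalin in each mouse, with the mean ± SD of each group. Sgms2 and Opalin do not overlap between the groups, and for each of the other 6 all but a single mutator lie below all controls.

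Markers of vessels and blood were read beside Acer2 and Sgms2. Of 10 endothelial markers edgeR called 0 (5 at an unadjusted p under 0.05, 3 higher and 2 lower) and DESeq2 called Flt1 and Kdr, with a median log2 fold change of 0.041 and summed levels of 230.4 to 281.0 CPM in controls and 238.8 to 309.9 CPM in mutators. Kdr had the highest log2 fold change of the 10, 0.84 (adjusted p = 0.0705 in edgeR), and Tie1 the lowest, -0.29 (adjusted p = 0.143 in edgeR). Of 6 pericyte markers 1 was called, Abcc9 (log2 fold change 0.64, adjusted p = 0.000433 in edgeR), and their sum ran from 186.3 to 203.7 CPM in controls and from 187.6 to 222.7 CPM in mutators. Of 6 platelet markers 2 were called higher, Ppbp and Tubb1, of which Tubb1 had 0 counts in controls 237 and 246. At an unadjusted p under 0.05, 4 platelet markers were higher and 1, Gp1bb, was lower (log2 fold change -0.37, unadjusted p = 0.00861 in edgeR, not called). The 6 summed to 8.26 to 10.9 CPM in controls and 8.19 to 13.2 CPM in mutators. The 5 red blood cell markers had 0 calls by either tool, 0 at an unadjusted p under 0.05, and sums of 57.5 to 198.3 CPM in controls and 89.7 to 256.9 CPM in mutators. Their 5 fitted log2 fold changes were all positive, from 0.33 to 1.02, with a wide median standard error of 0.44. The astrocyte and neuron lists had 0 calls in edgeR, with 3 of 8 and 2 of 7 at an unadjusted p under 0.05, and DESeq2 called the astrocyte genes Gjb6 and Slc1a2. The part of these cells in the levels of Acer2 and Sgms2 was not tested.

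The heterozygous control was the lowest of the 4 controls for 16 of the 48 genes and the highest for 15. Over all genes tested it was the lowest for 29.5% and the highest for 28.4%. It was the lowest for all 4 ceramidases and the highest for Smpd1, Smpd3, Smpd4, B4galnt1, Gltp and Fa2h, so values of these genes with the 3 WT/WT mice alone lay nearer to the mutators. For Ormdl2, Ormdl3 and Mfsd2a, which had positive fold changes, it was the highest too. There the 3 WT/WT mice alone lay further from the mutators.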

How the data were processed

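Cerebral poly(A)+ RNA of 11 mice was sequenced as paired ends. The authors mapped reads with TopHat2 2.0.6 and Bowtie2 on the mm9 genome, counted them with HTSeq (versions per the submitters' processing notes), and deposited raw counts per gene symbol and, for 10 mice, raw counts per exon bin, neither normalized. Deposited tables of their own comparisons (group means, fold changes and p-values) and of read totals were not used.

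Gene counts of 7 mutators against 4 controls were fitted in R 4.3.3 with edgeR 4.0.16 (filterByExpr, TMM, robust quasi-likelihood), and p-values were adjusted after Benjamini and Hochberg over the 17983 genes tested. Standard errors came from the fold change and the F statistic, and CPM from TMM-scaled library sizes. A gene was called at an adjusted p under 0.05. Bin counts of 7 mutators against 3 WT/WT mice were fitted with diffSpliceDGE, with limma 3.58.1 as the alternative. CPM of bins were scaled to the TMM-scaled total of the counts in bins. Intervals and p-values set the group difference against the spread between mice, which is estimated for each gene with information shared across genes. The code was tested on simulated counts. DESeq2 1.42.0, other normalization, filters and controls, a depth covariate, gene totals from exon bins and leaving out each mouse were alternatives, and the closing section gives their effect.

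The members, lists and tests were chosen with earlier results of these data known. Besides Acer2, the genes named were members called or with groups apart, the member with the lowest unadjusted p of each role group, and called genes among the other sphingolipid genes. Others named were chosen after their values were seen. Positions, exon lengths and sequences are those of mm9 and a later annotation than the authors', GENCODE M1. Sptssa and Sptssb were matched through older symbols by RefSeq, Map2 likewise, and the marker Rbfox3 was not matched. No strand was stated for the counting, so reads of overlapping genes cannot be told apart.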

Additional observations from a re-analysis of the deposited data

Results flagged for a closer look

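In 99 groups of mice (each of the 48 genes in controls and in mutators, and 3 measures of the Acer2 bins in mutators), the highest or lowest mouse was compared with its nearest neighbour by Dixon's test. It stood apart in 7 groups, where chance alone flags about 1 in 20, or 4.95 of 99. The ratio is the gap to the nearest mouse over the whole range of the group. Among the controls, the WT/D257A mouse 237 was the highest for Smpd4 (86.8 CPM, next 72.9 CPM, ratio 0.91) and the lowest for Ugcg (83.2 CPM, next 94.4 CPM, ratio 0.919), and mouse 246 was the highest for Sphk1 (3.49 CPM, next 2.99 CPM, ratio 0.842) and Hexa (51.4 CPM, next 45.7 CPM, ratio 0.840). Among the mutators, mouse 217 was the highest for Degs1 (76.6 CPM, next 69.9 CPM, ratio 0.705), mouse 249 the highest for Sgms1 (48.4 CPM, next 40.7 CPM, ratio 0.669) and mouse 207 the lowest for Hexa (32.8 CPM, next 41.9 CPM, ratio 0.569). Degs1, Sgms1, Smpd4, Ugcg, Hexa and Sphk1 were called in none of the 17 alternatives.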

How the results depend on the processing

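Of the 47 members other than Acer2, 1 was called with all mice, Sgms2. None of them was called with the 3 WT/WT controls only or with gene totals from exon bins. With 1 mouse left out, the call was Sgms2 alone, Sgms2 and B4galnt1, or none. The number of called genes among the other sphingolipid genes was 2 in all, 1 with RLE normalization, 1 with a mean count of at least 10, 0 with the 3 WT/WT controls only, 0 with gene totals from exon bins and 4 with DESeq2, and ran from 0 to 3 with 1 mouse left out. Leaving out mouse 237 and using the 3 WT/WT controls only are 1 fit, counted once among the 17 alternatives. Asah2 went from 0.051 to 0.0013 with the 3 WT/WT controls only and to -0.029 with gene totals from exon bins, which also lack mouse 237 (edgeR adjusted p = 0.933). Signs changed in 10 alternatives for Degs2, 9 for Smpd2, 5 for Gba2, 3 each for Sgms1 and Psap, and 1 each for Degs1, Asah2, Ugcg and Glb1. Over all genes, 50 were called without mouse 237, 412 without control 205 and 615 by DESeq2, against 223. Calls near the threshold thus rest on single mice and on the test used. The median of the members kept its sign and the count of called bins stayed at 0 in the alternatives run for them. The Acer2 log2 fold change, a description, lay between 1.19 and 1.49. In the smallest library, Acer2 rested on 223 counts, Sgms2 on 118 and Lass3 on 6.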
